A study of Homo sapiens with 8 samples.

Results

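PC9R carried 3623 wide distal H3K4me2 regions that had no counterpart in PC9 and did not overlap open chromatin in PC9R. They were drawn from the 117861 H3K4me2 peaks of PC9R in 4 steps. Of these peaks, 33656 were at least 600 bp wide, 4471 of those did not overlap a PC9 H3K4me2 peak by even 1 bp, and 4007 of those did not overlap a DNase hypersensitive site (DHS) of PC9R. The last step kept peaks lying more than 1 kb from the start of every transcript of a protein-coding gene on hg19, which left 3623 regions, or 3.07% of the list. PC9 and PC9R are human lung adenocarcinoma cell lines, each used at passages 8 to 12. PC9R was selected from PC9 with the EGFR inhibitor gefitinib over 1 to 2 weeks, and whether it was kept in the drug until harvest is not stated. The series holds 8 samples, with 1 H3K4me2 ChIP-seq library, 1 DHS library and 2 RNA-seq libraries per line. PC9 is known for an activating EGFR mutation. A drug response and a property of the cells that survived selection cannot be told apart in PC9R.

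H3K4me2, dimethylation of lysine 4 on histone H3, is found at promoters and at enhancers, both active and primed. A DHS is a short stretch where regulatory proteins leave DNA open to DNase, so active enhancers usually carry both signals. Each peak list belongs to 1 library, and how deeply those libraries were sequenced is not stated. The PC9R lists were longer than the PC9 lists, with 117861 against 85246 H3K4me2 peaks and 59600 against 19648 DHS peaks. Absence from a list means that no peak was called there. Since each line has 1 library per peak assay, peak differences between PC9 and PC9R were described and not tested.

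The central 300 bases of 5 of the regions are given as examples and are not a typical sample of the class. They are the widest member of 3 of its largest clusters, and the member closest to the start of MSN and of MAP9, whose RNA rose. Others chosen by the same rule, among them that of LRP1B, whose RNA fell, are not shown. Each is given 5′ to 3′ on the plus strand of GRCh37, with matches to any of 12 searched motifs in capitals. The region near UNCX (chr7:1294552-1294851) is intergenic, that near AMOT (chrX:112094888-112095187) is intergenic, and that in ASIC2 (chr17:31413990-31414289) is intronic. The regions of MSN (chrX:64801930-64802229) and MAP9 (chr4:156304482-156304781) are intergenic.
UNCX cluster: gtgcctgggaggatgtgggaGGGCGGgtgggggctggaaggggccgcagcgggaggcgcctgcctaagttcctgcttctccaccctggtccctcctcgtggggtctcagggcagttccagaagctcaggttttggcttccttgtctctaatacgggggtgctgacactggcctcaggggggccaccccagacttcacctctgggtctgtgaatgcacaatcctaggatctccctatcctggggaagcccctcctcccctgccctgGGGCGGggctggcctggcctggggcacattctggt
AMOT cluster: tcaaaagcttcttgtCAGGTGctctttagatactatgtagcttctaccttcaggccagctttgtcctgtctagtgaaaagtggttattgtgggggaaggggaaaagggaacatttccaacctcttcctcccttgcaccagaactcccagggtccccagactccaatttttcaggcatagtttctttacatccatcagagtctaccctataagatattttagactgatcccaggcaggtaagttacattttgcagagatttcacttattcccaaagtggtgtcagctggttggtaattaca
ASIC2 cluster: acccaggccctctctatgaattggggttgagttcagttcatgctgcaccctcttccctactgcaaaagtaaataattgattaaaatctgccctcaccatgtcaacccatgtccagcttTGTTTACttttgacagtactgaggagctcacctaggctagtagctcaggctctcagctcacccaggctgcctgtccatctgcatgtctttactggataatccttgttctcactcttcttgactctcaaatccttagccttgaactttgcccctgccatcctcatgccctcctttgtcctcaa
MSN upstream region: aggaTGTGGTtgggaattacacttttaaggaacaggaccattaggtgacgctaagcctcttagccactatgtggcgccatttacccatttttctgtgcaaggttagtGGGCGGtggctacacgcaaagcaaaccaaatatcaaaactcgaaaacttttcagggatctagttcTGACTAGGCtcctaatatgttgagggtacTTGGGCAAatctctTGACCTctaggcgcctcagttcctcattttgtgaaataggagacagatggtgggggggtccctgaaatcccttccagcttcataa
MAP9 upstream region: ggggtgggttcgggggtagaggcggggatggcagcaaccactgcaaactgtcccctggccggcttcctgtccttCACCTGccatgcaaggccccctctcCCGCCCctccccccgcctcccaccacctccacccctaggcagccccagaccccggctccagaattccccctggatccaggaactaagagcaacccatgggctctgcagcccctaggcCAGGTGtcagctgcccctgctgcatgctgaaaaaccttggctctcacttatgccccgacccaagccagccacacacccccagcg
The UNCX and MAP9 sequences were rich in G and C (65.3% and 66.3%), and the capitals there mark GGGCGG boxes and, at MAP9, E-boxes. Over the central 300 bases of all 3623 regions the median was 47.7% and the 90th percentile 59.9%. The AMOT, ASIC2 and MSN sequences had 43.7%, 47.7% and 46.3% G and C. The MSN sequence held 5 matches, the ASIC2 sequence 1 forkhead match and the AMOT sequence 1 E-box.

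The regions were of modest width and score. Their median width was 717 bp, with a range of 600 to 1962 bp. The score is the authors' own, with no stated scale, and within the PC9R list the median of the regions was 14.8 against 12.2 over all peaks and 26.0 for wide distal peaks shared with PC9. The widest, of 1962 bp, lay at chr1:231274825-231276786 between genes, with TRIM67 nearest. The highest-scored, 82.5, lay at chr12:5223130-5224067, 70085 bp from the nearest coding start, that of KCNA5. Just inside the width limit were intronic and intergenic peaks of 600 bp near COMMD7, CHMP4B and DUSP5, scored 32.7, 26.4 and 26.3, and just outside were peaks 1 bp narrower than the limit near OSBPL6, SYNPO2 and CCDC160, scored 27.7, 25.9 and 25.1. Just inside the distance limit were peaks 1014, 1019 and 1020 bp from the starts of NRCAM, CCM2 and DGKD, and just outside were peaks 995, 989 and 986 bp from those of EXD3, GPR142 and VRTN.

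Open chromatin was scarce at these regions in PC9 too. The selection did not use PC9 DHS. It did remove peaks with a PC9R DHS or PC9 H3K4me2, so the low share is a description and no independent check. A PC9 DHS overlapped 56 of the 3623 regions, or 1.55% (95% exact binomial interval 1.17% to 2.00%, counting error only). The share was 12.4% (11.9% to 13.0%) for the 14154 wide distal PC9R peaks shared with PC9. Those were not filtered for DHS, and 14.2% of them overlapped a PC9R DHS. The share with a PC9 DHS was 0.999% for the 38727 narrower PC9R-only distal peaks without DHS, which were filtered alike. It was 16.5% for the 369 wide PC9R-only distal peaks with a PC9R DHS. A PC9R DHS lay within 10 kb of 37.6% of the regions (35.99% to 39.2%), against 44.99% (44.2% to 45.8%) of the shared peaks, which could themselves overlap one.

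The regions stood far from PC9 H3K4me2. Selection required only that they did not overlap it. Yet the median distance to the nearest PC9 H3K4me2 peak was 16727 bp, and 15.3% (14.2% to 16.5%) had one within 5 kb. The reverse class, 2978 wide distal PC9 peaks with no PC9R H3K4me2 and no PC9 DHS, had a median distance of 1131.5 bp to PC9R H3K4me2. In that class 2679 regions (89.96%, 88.8% to 91.0%) had a PC9R peak within 5 kb. PC9-only regions were thus mostly flanked by PC9R signal, whereas PC9R-only regions mostly were not flanked by PC9 signal, with a list of PC9R peaks 117861 long and one of PC9 peaks 85246 long. The part of list length in that difference was not tested.

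**Figure D1:**
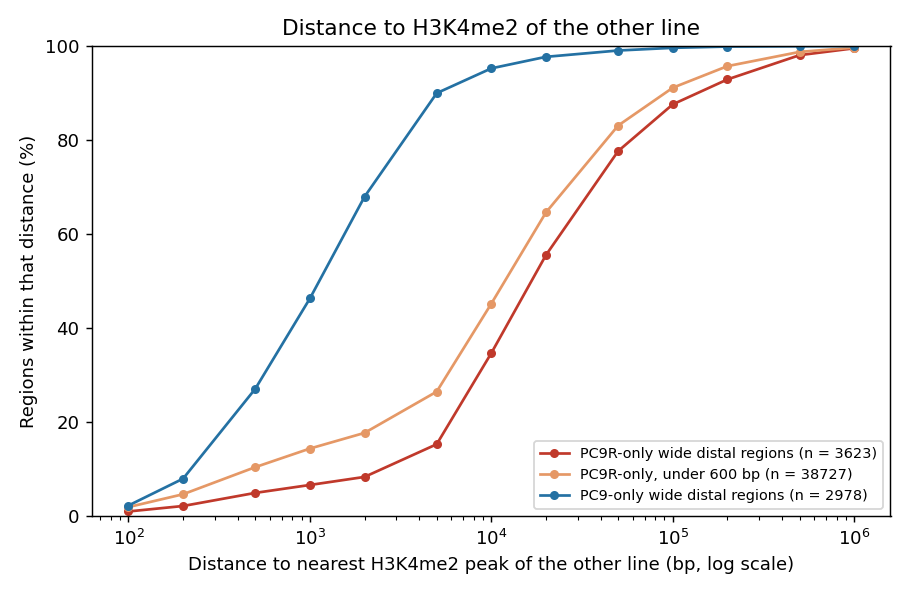
Share of regions (%, vertical axis) with an H3K4me2 peak of the other line within a given distance (bp, log scale), for the 3623 PC9R-only regions, the 38727 narrower PC9R-only peaks and the 2978 PC9-only regions. At 5000 bp the curve of PC9-only regions has reached 89.96% and that of the PC9R-only regions 15.3%.

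Most regions lay alone, in introns or between genes. The midpoint fell in an intron of a coding gene in 1594, in an exon in 138 and between genes in 1891. Inside coding genes lay 47.8% (46.2% to 49.4%), compared with 43.6% of the shared wide distal peaks and 63.5% of the PC9-only regions. The median distance to a coding start was 26515 bp, and 20.3% were over 100 kb away. With a gap of at most 25 kb from one to the next, 3063 regions (84.5%) were single, 239 pairs were found, and 82 regions (2.26%, 1.80% to 2.80%) formed 25 clusters of 3 or more. The shared peaks, a denser set, had 24.0% in clusters. The PC9-only regions, a smaller set of 2978, had 14.8% (13.6% to 16.2%).

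The largest cluster held 5 regions over 44832 bp at chr7:1294082-1338913, between genes, with the homeobox gene UNCX nearest to each. No PC9 H3K4me2 peak was called in that span, where PC9R had 7 H3K4me2 peaks and 1 DHS. A cluster of 4 at chr20:52817505-52864900 lay in and near PFDN4, a prefoldin subunit gene, and had 1 PC9 H3K4me2 peak and 7 PC9R DHS peaks in its span. At chrX:112051436-112095720, 3 intronic regions and 1 upstream region lay at AMOT, which encodes angiomotin, a binding partner of YAP, and the span also held 2 PC9 H3K4me2 peaks and 2 PC9R DHS peaks. The cluster at chr17:31399471-31440976 put 4 regions in introns of ASIC2, an acid-sensing ion channel gene, with neither PC9 H3K4me2 nor any DHS of either line. The cluster at chr16:49957365-49995152 held 4 regions between ZNF423 and CNEP1R1 and likewise had no PC9 H3K4me2 and no DHS.

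The regions were spread unevenly over chromosomes. Relative to wide distal PC9R peaks, of which 19.97% (19.4% to 20.6%) were members in all, the share was highest on chromosome X (116 of 407, 28.5%, interval 24.2% to 33.2%), chromosome 9 (227 of 873, 26.0%, 23.1% to 29.0%) and chromosome 3 (255 of 1039, 24.5%, 22.0% to 27.3%). It was lowest on chromosome 21 (11 of 161, 6.83%, 3.46% to 11.9%) and chromosome 19 (58 of 566, 10.2%, 7.87% to 13.0%). The intervals of X, 9, 3, 7 and 5 lay above that of all chromosomes together. The PC9-only class did not have this order: its share was 11.0% on X and 13.0% on 9. Median RNA log2 fold changes of all tested genes were 0.12 on X, 0.25 on 9 and 0.16 on 7, but -0.36 on 3 and -0.14 on 5. Over 23 chromosomes the share of members and that median had a Spearman rho of 0.424.

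**Figure D2:**
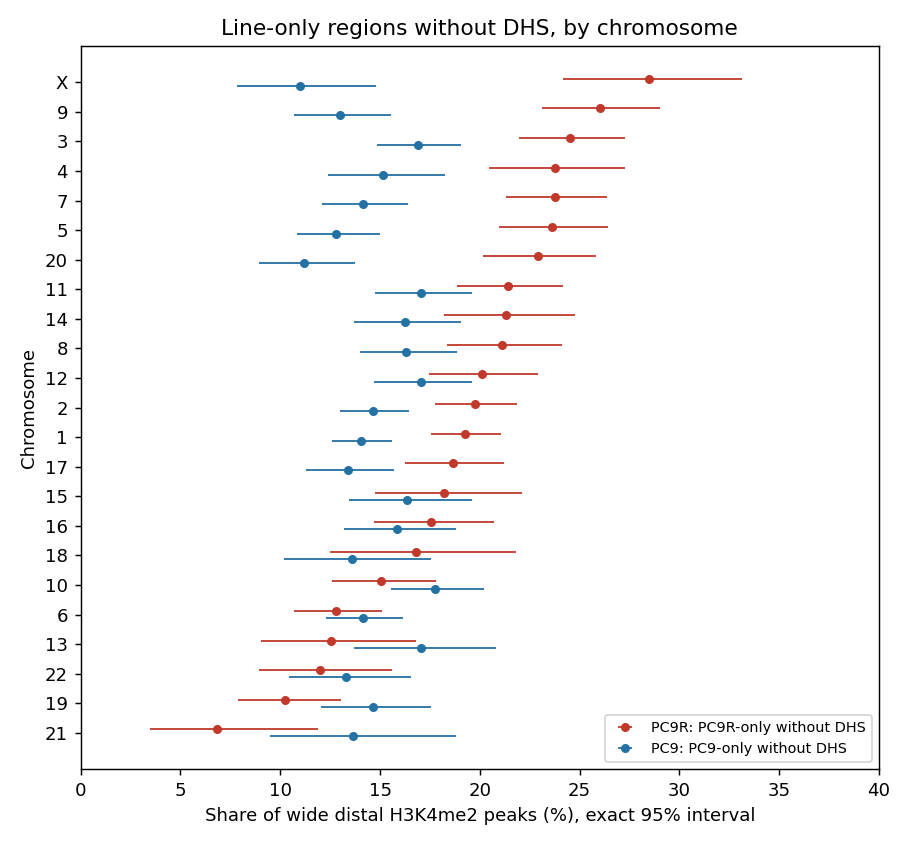
Share of wide distal H3K4me2 peaks that were line-only and without DHS (%, horizontal axis, bars are exact 95% binomial intervals) on each chromosome, for PC9R peaks and PC9 peaks. PC9R shares run from 6.83% on chromosome 21 to 28.5% on X, while the PC9 share on X is 11.0%.

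In windows of 5 Mb, chromosome 9 had 3 of the 5 highest shares. From 75 to 80 Mb of chromosome 9, 17 of 30 wide distal PC9R peaks were members, and from 85 to 90 Mb and 80 to 85 Mb the counts were 24 of 45 and 24 of 50. The other two were 14 of 25 at 10 to 15 Mb of chromosome 17 and 15 of 29 at 40 to 45 Mb of chromosome X. In these 5 windows the median RNA log2 fold change was 0.46, 0.66, 1.08, 0.40 and 0.71 in that order, each above 0. Across 348 windows with at least 20 wide distal peaks and 5 tested genes, rho between share and median fold change was 0.342, and 0.316 without chromosome 9. In the 87 windows with the lowest shares (up to 13.5%) the middle value of these medians was -0.16, and in the 87 with the highest (from 25.3%) it was 0.13. Called DHS peaks differed there too, with 135 in PC9R and 2 in PC9 at 80 to 85 Mb of chromosome 9.

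The rule that selected the regions used no RNA values, although the class was chosen with earlier results of these data known. Libraries held 32515891 and 16013058 counts for PC9 and 32502455 and 16715426 for PC9R. The first and the second library differed in depth and moved alike in both lines, so 2 fits were made. The fit without library number is the main test. Results of the fit with it are given beside the main test or, where so named, alone. Epithelial and lung adenocarcinoma markers were plentiful as a sum (10600 to 24200 CPM over 9 genes), and 8 of them reached 10 counts in all. The lung lineage factor NKX2-1 had 1 count in the first PC9 library and 0 in the rest. It has 2 accessions, so this was not read as a lack of expression. Fibroblast, leukocyte and endothelial markers were low (at most 65.2, 17.5 and 46.8 CPM), with DCN and MS4A1 at 0 counts. The fibroblast, leukocyte and endothelial sums were all higher in PC9R within each library number, and their part in the results was not tested.

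Coding genes that held a region in their body were more often higher in PC9R than genes at large. There were 1424 such genes, or 7.07% of 20136, with a median length of 133835 bp against 27217 bp for all. Of the 1084 with any RNA count, 459 (42.3%) were higher in PC9R in both library numbers and 268 (24.7%) were lower, while over the 17834 gene rows with a count the shares were 32.2% and 31.4%. Of genes holding a PC9-only region, 30.1% were higher and 42.5% lower in both. Hosts of wide PC9R-only distal peaks with a PC9R DHS leaned to higher RNA too, with 43 of 86 higher and 20 lower in both. Hosts of the narrower PC9R-only peaks (35.8% higher, 30.6% lower) and of the shared wide distal peaks (37.1%, 32.4%) leaned less. The lean to higher RNA was thus not particular to regions without DHS. The filter on low counts left 786 host genes of the 3623 regions. In the main fit edgeR's quasi-likelihood test with Benjamini-Hochberg adjustment called 3 of them higher and 1 lower, where the background over 12660 genes was 0.19% higher and 0.0632% lower. With library number in the fit it called 139 higher (17.7%) and 65 lower (8.27%), against a background of 11.2% and 9.57%. Only 1 residual degree of freedom is left by that fit, and the moderated spread of all genes dominates its p-values. Their median log2 fold change was 0.17, against -0.01 over all tested genes. Host genes are long, so length classes were compared. Up to 50 kb, 19.0% of hosts and 11.9% of all coding genes were called higher with library number, and above 200 kb the shares were 16.4% and 12.2%. Of 64 tested hosts of the wide peaks with a PC9R DHS, 29.7% were called higher and 10.9% lower with library number. The interval of the higher share (18.9% to 42.4%) overlapped that of the hosts of the regions (15.1% to 20.5%). For hosts of the narrower peaks the shares were 13.3% higher and 9.21% lower, and for those of the shared peaks 13.3% and 9.94%.

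The nearest coding gene, taken up to 100 kb from the midpoint, gave a like picture. This linked 2887 regions (79.7%) to 2276 genes, 1317 of them tested. Of these, 5 (0.38%) were called higher and 2 (0.15%) lower in the main fit, against a background of 0.19% and 0.0632%. With library number 214 (16.2%) were higher and 110 (8.35%) lower, against 11.2% and 9.57%. In that fit 13.2% of nearest genes of the narrower PC9R-only peaks were called higher and 9.71% lower. For wide PC9R-only distal peaks with a PC9R DHS the shares were 20.8% and 10.1%. By distance, 18.3% were called higher with library number for regions up to 10 kb away, 16.4% between 10 and 50 kb, and 53 of 265 between 50 and 100 kb, with 95% intervals that overlapped.

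Genes that held several regions had larger fold changes. Tested hosts of 1, 2, 3 and at least 4 regions had median log2 fold changes of 0.13, 0.30, 0.67 and 1.26. The last of these moved by over 1.5 times in several settings: to 2.44 without the first PC9 library, 1.91 without the second PC9 library, 1.98 without the second PC9R library, 0.72 with regions from 500 bp, and 0.80 with 1 start per gene or with no PC9 H3K4me2 within 500 bp. Of the 28 genes holding at least 4, 26 had counts, and 20 of these (76.9%) were higher in PC9R in both library numbers while 1 (3.85%) was lower. Over all gene rows with a count these shares were 32.2% and 31.4%. After the filter 19 of the 28 genes remained, of which edgeR called 2 (10.5%) higher in the main fit and 11 (57.9%) with library number. Over all tested genes the higher shares were 0.19% and 11.2%. Among coding genes above 200 kb they were 0.55% and 12.2%. In those 19 no gene was called lower in either fit, nor was any lower at an unadjusted p under 0.05. Among all 786 tested host genes DESeq2 and limma-voom called 38 and 14 higher. Of the 19 they called 5 and 3 higher and none lower. With upper quartile scaling 0 were called higher (9 at an unadjusted p under 0.05), with the stricter filter 1 of 12, and without the first PC9 library 1 of 21. Such genes were long, with a median of 614971 bp. Set against the median of tested genes in the same 5 Mb window that held no region, the difference had a median of 0.88 for these genes and was above 0 in 16 of 19. It was 0.13, 0.07 and 0.46 for hosts of 1, 2 and 3 regions. The window comparison and the emphasis on genes with at least 4 regions were chosen after the values had been seen.

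**Figure D3:**
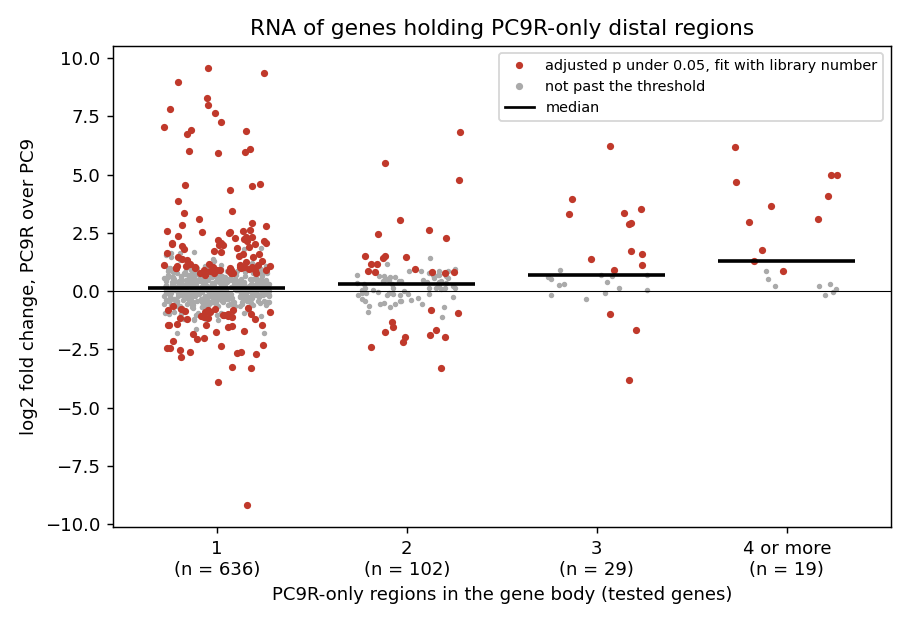
Log2 fold change of PC9R over PC9 in the fit with library number (vertical axis) for 786 tested genes, by the number of PC9R-only regions in the gene body. Red points passed an adjusted p of 0.05 in that fit, and the median line climbs from 0.14 for 1 region to 1.28 for at least 4.

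MSN, the gene of moesin, which ties the actin cortex to the plasma membrane, combined many regions with a high level. It held 6 regions in introns and had a seventh in front of its start, and PC9 had no H3K4me2 peak or DHS within 1 kb of that start, whereas PC9R had both. The intronic regions were 662 to 1435 bp wide and lay 8908 bp or more from PC9 H3K4me2. The closest to a PC9R DHS lay 99 and 195 bp from one, and the rest 1538 to 4854 bp. MSN was at 150 and 196 CPM in the PC9 libraries and at 2019 and 2257 CPM in those of PC9R, so the lines did not overlap. Its log2 fold change was 3.63 ± 0.51 (SE; 3.75 between the first libraries and 3.53 between the second), with an edgeR adjusted p of 0.0411 in the main fit and 5.6e-05 with library number. The main call of MSN was lost without the first PC9 library (adjusted p 0.0801).

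Of the other tested genes with at least 5 regions, 4 were called higher with library number and 3 were not called in either fit. Those 3 were MECOM, a zinc finger transcription factor gene (6 regions, log2 fold change 0.80, edgeR adjusted p 0.114 with library number), SHANK2, a synaptic scaffold gene (5 regions, 0.20, 0.53), and PCSK5, a proprotein convertase gene (5 regions, 0.09, 0.797). The counts of all 3 are limited as given below, so the missing calls were not read as a lack of change. ADAMTS12, a secreted metalloprotease gene with 6 intronic regions, was at 0.47 and 1.20 CPM in PC9 and 22.1 and 26.3 CPM in PC9R. Its log2 fold change of 4.89 ± 0.78 had an edgeR adjusted p of 0.0585 in the main fit and 0.00016 with library number. PC9 had neither H3K4me2 nor DHS at its start and PC9R had both. GABBR2, a GABA-B receptor subunit gene with 5 regions, was at 10.7 and 3.20 CPM in PC9 and at 80.0 and 33.2 CPM in PC9R. Within each library number the PC9R value was higher, and the log2 fold change of 3.02 ± 0.81 passed only the fit with library number (edgeR adjusted p 0.234 and 0.00022). CPNE4, a copine gene with 5 regions, was at 0.31 and 0.40 CPM in PC9 and 6.89 and 4.93 CPM in PC9R, for which edgeR gave an adjusted p of 0.0772 (0.00054 with library number). ASIC2, with 6 regions, was at 0.22 and 0.13 CPM in PC9 and 1.17 and 2.14 CPM in PC9R, where the edgeR adjusted p was 0.226 (0.0092 with library number). At its start GABBR2 had H3K4me2 in both lines and no DHS, CPNE4 only a PC9R DHS, and ASIC2 neither mark in either line.

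The level of several genes rich in regions could not be read from the counts. PALM2AKAP2, with 7 regions the highest number, and NTRK2, MECOM, PLCH1 and BBS9 each have 3 to 7 accessions in the tables, and the 8198 gene rows with more than 1 accession together held at most 7.07% of counts. ASIC2, FRAS1, AMOT, PCSK5 and SHANK2 have 2 accessions each. For these genes and MECOM the difference between lines is given and the level is not read. NTRK2, which encodes the neurotrophin receptor TrkB, held 6 regions, each at least 377891 bp from PC9 H3K4me2, and had 0 counts in every library, which was not read as a lack of expression. PC9R and not PC9 had H3K4me2 and a DHS at its start. PALM2AKAP2 and PLCH1 had H3K4me2 there in both lines and a DHS in PC9R alone. MECOM and BBS9 had H3K4me2 in both lines and no DHS.

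In the main fit 5 genes linked to a region rose and 2 fell. FRAS1, a basement membrane protein gene with 4 regions, was at 0.28 and 0.20 CPM in PC9 and 15.1 and 25.4 CPM in PC9R, a log2 fold change of 6.33 ± 0.81 (edgeR adjusted p 0.0362). Its regions were 355580 to 550509 bp from the nearest PC9R DHS, and 1 lay 372 bp from PC9 H3K4me2. SLC2A3, the glucose transporter GLUT3, with 1 region, went from 1.38 and 2.54 CPM to 305 and 157 CPM, and also held 1 PC9-only region. Its PC9R-only region lay 525 bp from PC9 H3K4me2. MAP9, a microtubule-associated protein gene, had 0 and 2 counts in the PC9 libraries and 71.2 and 126 CPM in PC9R, a count ratio of 2085 (95% counting interval 577 to 17220). Its region lay 6509 bp from the start, and 569410 bp from PC9 H3K4me2. SLC6A14, an amino acid transporter gene, was at 0.16 and 0.13 CPM in PC9 and 46.0 and 24.97 CPM in PC9R, with a region 90181 bp away.
TNC, which encodes the matrix protein tenascin C, went the other way, from 137 and 215 CPM in PC9 to 0.17 and 0.48 CPM in PC9R, although it held a PC9R-only region of 607 bp. LRP1B, a lipoprotein receptor family gene, had 356 and 174 counts in PC9 and 2 and 1 in PC9R, a ratio of 196 (66.6 to 952), with a region 60109 bp from its start. SLC2A3, MAP9, SLC6A14, TNC and LRP1B each had an edgeR adjusted p of 0.0359. MAP9, like MSN, had H3K4me2 and a DHS at its start in PC9R alone. FRAS1 and SLC6A14 had H3K4me2 there in both lines and no DHS. SLC2A3, which rose, and TNC, which fell, had H3K4me2 in both lines and a DHS in PC9R alone. LRP1B had both marks in both lines. The libraries of the lines did not overlap in any of the 7 genes called. With 2 libraries per line that is close to given by the call and is no added support. With upper quartile scaling none of the 7 kept an adjusted p under 0.05 (range 0.0536 to 0.0563).

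**Figure D4:**
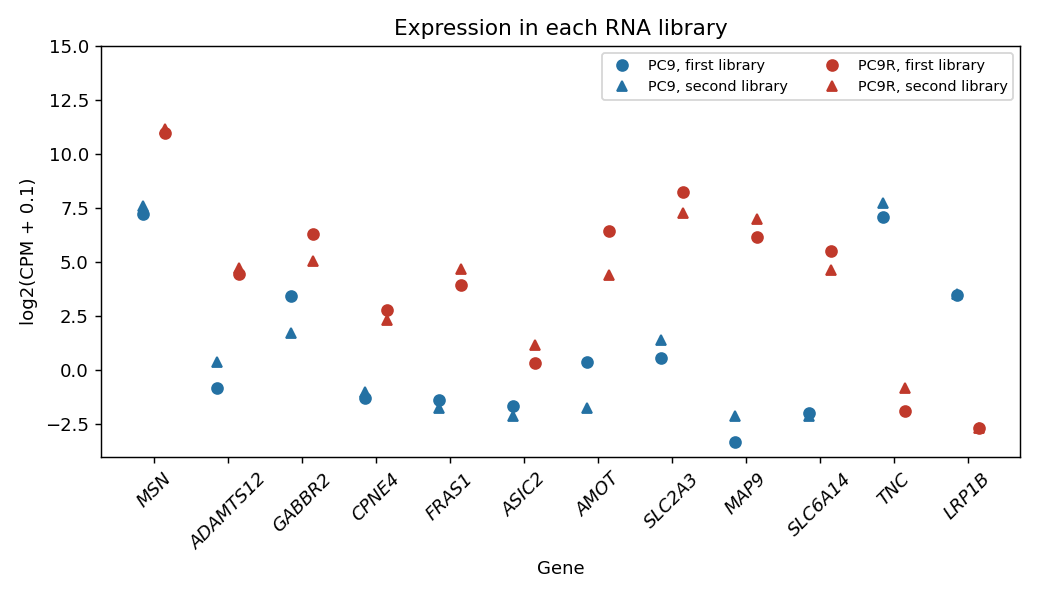
Expression as log2(CPM + 0.1) in each RNA library for 12 genes linked to PC9R-only regions, with circles for the first library and triangles for the second library of a line. The PC9R points lie above the PC9 points in all but TNC and LRP1B, where they lie below.

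More host genes were called with library number in the fit, and those named here had lines that did not overlap and at least 10 CPM in the higher line. The largest rise was in SLC2A3, followed by AMOT, at 1.22 and 0.20 CPM in PC9 and 86.5 and 21.3 CPM in PC9R. COL4A3, a basement membrane collagen gene, was at 0.35 and 0.40 CPM in PC9 and 38.9 and 8.38 CPM in PC9R. BPIFB1, a secreted airway protein gene with 2 exonic regions, was at 3.64 and 2.40 CPM in PC9 and 341 and 39.6 CPM in PC9R. ALDH1A1, a retinaldehyde dehydrogenase gene, was at 24.0 and 11.9 CPM against 541 and 296 CPM. PLCG2, MOB3B, DNER and RGL1 also rose, with log2 fold changes of 4.77, 3.53, 3.34 and 3.31 in that fit. In the other direction TNC led, and SH3RF3, with 3 regions, was at 13.7 and 13.1 CPM in PC9 and 1.02 and 0.83 CPM in PC9R. CTSC, the gene of cathepsin C, was at 792 and 1431 CPM against 118 and 254 CPM, and GLI2, a hedgehog pathway transcription factor gene, at 52.4 and 25.2 CPM against 7.72 and 6.66 CPM. VSTM2L, C14orf132, PAPPA, CDYL2, SDK1, HTRA3, SPOCK1 and ESPNL fell too, with log2 fold changes in that fit of -3.31 for VSTM2L and -2.19 for SPOCK1. In the main fit VSTM2L stood at -3.36 and SPOCK1 at -1.73. Apart from SLC2A3 and TNC, no gene of this paragraph was called in the main fit. Their edgeR adjusted p there ran from 0.0509 (ALDH1A1) to 0.827 (SPOCK1).

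Of 9 gene lists, those of adhesion and signalling held regions most often. A region lay in the body of 8 of 30 adhesion, matrix and mesenchymal genes (26.7%), among them ITGA6, LAMA3 and TNC, and of 6 of 25 receptor kinase and ligand genes (24.0%), among them AXL, NTRK2 and RET. It lay in 5 of 24 ion channel and transporter genes and 5 of 29 axon guidance and neuronal adhesion genes. All coding genes stood at 7.07%, with shorter bodies. Of 17 tested adhesion genes, 0 were called higher and 1 lower by edgeR in the main fit, and 7 higher and 1 lower with library number, where the background was 11.2% and 9.57%. Only 5 of the 17 held or were nearest to a region, and of these 2 were called higher and 1 lower with library number, so 5 of the 7 higher calls were in genes linked to no region. Of 9 tested axon guidance genes, 0 were called in the main fit and 4 were called higher with library number. The 4 tested axon guidance genes linked to a region were not among them. Among transcription factors, 2 of 14 lung and forkhead lineage factors and 1 of 23 other factors held a region, as did 0 of 10 AP-1 and 0 of 7 TEAD and YAP genes. KDM5A was the 1 host among 15 H3K4 methylation enzymes.

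The sequences were AT-richer than PC9R H3K4me2 as a whole and rarely CpG-rich. Their median G and C content was 47.3%, against 51.0% over all peaks, and 0.552% (0.338% to 0.851%) reached at least 50% G and C with a CpG ratio of at least 0.6, against 6.83% of the shared wide distal peaks and 2.62% of PC9-only regions. The narrower PC9R-only peaks were alike in both, with a median of 48.2% and a CpG-rich share of 0.558% (0.486% to 0.637%). Motifs were searched on both strands of the central 300 bases. TEAD motifs (GGAATG) were found in 24.1% (22.7% to 25.5%), against 20.4% of all PC9R peaks, 21.9% of the shared wide distal peaks, 17.8% of PC9-only regions and 22.8% of the narrower PC9R-only peaks. C/EBP motifs (TTGCNNAA) were found in 18.8% (17.5% to 20.1%), against 14.2%, 14.7%, 15.3% and 16.3% in the same order. AP-1 motifs (TGANTCA) were found in 19.2%, against 13.8%, 21.0%, 18.2% and 14.9%. GATA motifs (AGATAA) stood at 18.0% and RUNX motifs (TGTGGT) at 21.4%. KLF/SP boxes (GGGCGG), found in 44.95% of RefSeq promoters of the same length, were in 7.23% (5.77% of the narrower peaks), and ETS motifs (CCGGAA) in 3.56%. The others searched were forkhead (TGTTTAC, 5.99%), E-box (CACCTG, 26.5%), nuclear receptor half-site (AGGTCA, 22.1%), NRF2 (TGACNNNGC, which can overlap AP-1, 12.9%) and NF-kB (GGGANTTCC, 1.38%). In the central 600 bases C/EBP motifs were in 31.7% of both the regions and the narrower PC9R-only peaks. The sets differed in base composition as given above, and its part in these shares was not tested.

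**Figure D5:**
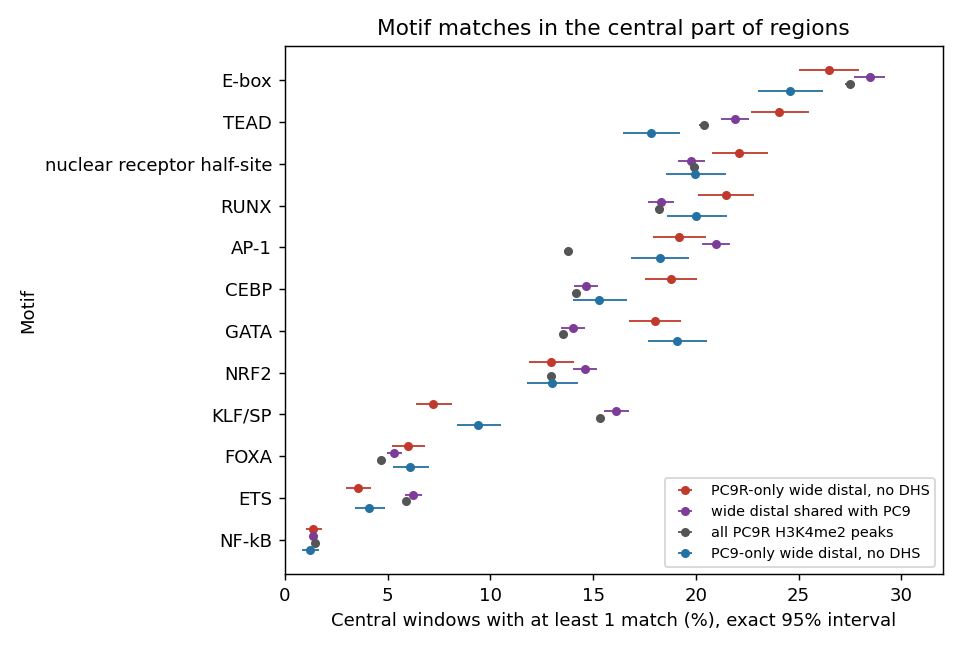
Share of central 300-base windows with at least 1 match (%, horizontal axis, bars are exact 95% binomial intervals) for each motif in 4 sets of H3K4me2 peaks. PC9R-only regions stand at 24.1% for TEAD and 18.8% for C/EBP, and at 7.23% for KLF/SP.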

How the data were processed

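The members, gene lists and comparisons were chosen with earlier results of these data known. The submitters' processing notes list the build hg19 and, with no version or role, DESeq, HTSeq, TopHat and MACS2. Per the file headers and values, the deposited peak lists give 1 score per peak, made by the authors on an unstated scale, and the deposited RNA files give whole-number counts per RefSeq accession. Nothing in the labels ties the 2 RNA libraries of a line to separate cultures. The p-values therefore reflect library-to-library spread alone, possibly technical.

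Counts of 42811 accessions were summed to 24630 gene rows (41556 matched to symbols in the RefSeq table of GRCh38.p14, used for names only, the rest kept as they were). Genes with more than 1 accession held 6.74% to 7.07% of counts, and their low values were not taken as low expression. PC9R and PC9 were compared with edgeR 4.0.16 after TMM scaling and filterByExpr. Its two-sided quasi-likelihood test without a block used a Benjamini-Hochberg threshold of 0.05. SE is the fold change over the root of F. A fit with library number was the listed alternative. Second-minus-first differences correlated at 0.788 between the lines, but with 2 pairs the labels do not establish pairing. Ratios with 1 to 3 counts have exact 95% counting intervals. Genes and starts came from GENCODE 44 lifted to GRCh37, promoters for motif shares from RefSeq on GRCh38.p14. A host gene holds the midpoint of a region. Overlaps of 1 bp were checked against bedtools 2.31.1, and the overlap, motif and edgeR scripts were tested on simulated data or against that tool.

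Named regions were the 5 widest, the 5 highest-scored, the 5 largest clusters and the 3 on each side of a limit. Named genes were the 10 with most regions (8 genes tied at 5 regions, of which the first 3 in alphabetical order were taken; SHANK2 and PCSK5 were added after their values were seen), every linked gene called in the main fit, up to 12 host genes per direction from the fit with library number (at least 10 CPM in the higher line, with no overlap between lines) and up to 3 per list. The text gives those the results turn on. Grouping of hosts by number of regions, gene length classes, distance limits and the CpG-rich class were added during analysis, and the limits on 5 Mb windows after a first table of windows. Genes of chromosome Y and XIST were left out.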

Additional observations from a re-analysis of the deposited data

How the results depend on the processing

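Apart from some motif comparisons between sets, given below, no result that was rerun changed direction, though 0 calls with upper quartile scaling leave no direction to compare. Rerun were counts of calls and regions, shares with a PC9 DHS, inside genes and in clusters, and motif shares. The median of genes holding at least 4 regions and named fold changes were rerun too. Chromosome shares, 5 Mb window shares, distances to PC9 H3K4me2, differences from window medians, shares in both library numbers and gene-list counts were not rerun. Only 32 genes were called in the main fit over all genes (24 higher), and that count depended on the fit: 440 without a filter, 15 with a mean of at least 5 CPM, 381 with DESeq2, 73 with limma-voom, 0 with upper quartile scaling (919 at an unadjusted p under 0.05) and 83 to 254 without one library. With the replicate block, that is library number in the model, it was 2631. For host genes called higher (3 in the main fit) the count was 45 without a filter, 38 with DESeq2, 14 with limma-voom, 139 with the replicate block, 0 with upper quartile scaling (77 unadjusted), 7 with regions from 500 bp, 1 with regions from 1000 bp, and 11 to 32 without one library. For host genes called lower (1) it was 11 without a filter, 14 with DESeq2, 65 with the replicate block, 0 with upper quartile scaling (26 unadjusted), 0 with regions from 1000 bp, 0 with scores at or above the list's median, and 1 to 4 without one library. For nearest genes called higher (5) it was 72, 63, 19, 214 and 0 (117 unadjusted) in the same order as for the hosts called higher, 9 from 500 bp, 1 from 1000 bp, 3 with the higher scores, 8 at any distance, and 13 to 49 without one library. For nearest genes called lower (2) it was 17 without a filter, 19 with DESeq2, 110 with the replicate block, 0 with upper quartile scaling (40 unadjusted), 0 from 1000 bp and with the higher scores, and 2 to 6 without one library. Fewer regions or fewer genes tested enter by construction of the width, score and filter settings, and otherwise the cause was not tested.

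The number of regions was 6262 from 500 bp, 338 from 1000 bp and 2345 with scores at or above the list's median. The share inside a coding gene was 42.3% more than 5 kb from a start and 51.2% with 1 start per gene. The share in clusters was 5.40% from 500 bp, 0.888% from 1000 bp, 1.45% with the higher scores, 0.497% at a gap of 10 kb and 7.09% at 50 kb. In the central 600 bases motif shares rose with the length searched, to 33.0% for AP-1, 41.5% for TEAD, 11.5% for forkhead, 31.7% for C/EBP, 38.0% for RUNX, 6.49% for ETS, 30.9% for GATA, 45.4% for E-box, 38.0% for the nuclear receptor half-site, 12.8% for KLF/SP, 24.5% for NRF2 and 3.04% for NF-kB. For the narrower PC9R-only peaks, where such a window reaches past the peak, C/EBP rose from 16.3% to 31.7% and GATA from 15.7% to 32.5%. The regions were thus no longer above that set for C/EBP and stood below it for GATA. For TEAD and AP-1 they stayed above it (38.1% and 28.7% in the narrower peaks).

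For genes holding at least 4 regions, where all alternatives were chosen after seeing the data, the median log2 fold change of 1.26 stayed above 0. It was 1.30 with upper quartile scaling, 1.51 without a filter, 1.08 with the stricter filter, 0.72 from 500 bp, 1.03 more than 5 kb from a start, 0.80 with 1 start per gene and with no PC9 H3K4me2 within 500 bp, 1.80 with the higher scores, 1.03 without chromosome X or 7 and 1.02 without chromosome 3. Without one library it ranged from 1.20 to 2.44, the latter without the first PC9 library, and it was 1.91 and 1.98 without the second library of PC9 and of PC9R. Of 31 named genes, 7 lost the main call with upper quartile scaling, 1 (MSN) with the stricter filter and 1 (MSN) without the first PC9 library. Depth of the peak libraries is unknown, which limits any reading of a missing peak.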
